A study of Mus musculus with 8 samples.

Results

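Glycolysis splits glucose into pyruvate through a chain of enzymes in the cytosol. Here 9 genes of that chain, Gpi1, Pfkl, Aldoa, Tpi1, Gapdh, Pgk1, Pgam1, Eno1 and Pkm, were followed in mouse islet cells. They were picked by gene symbol as steps of one pathway out of the 24421 genes in the count tables, with earlier results of these data known, and all 9 symbols were found in all 8 samples. Cells were from C57BL/6J male mice of 8 weeks. The 4 control samples came from mice without any operation. The 4 PPTx samples came from mice whose pancreas had been reduced by about 50% through partial pancreatectomy 2 days earlier. Islets of 1 to 3 mice were pooled in each sample. For PPTx against control, p-values measure the spread between these pools. For comparisons of cells within a sample, they measure how the difference varies between pools. The resected piece was the splenic side, so the operation and the region of pancreas that was left cannot be told apart. The labels name no transgene and no other treatment in either group.

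β-cells burn glucose in order to sense it. Glucose enters a rodent β-cell through GLUT2, the product of Slc2a2, is phosphorylated, and passes down glycolysis to mitochondria, where the ATP made closes potassium channels and releases insulin. G6pc2, an islet glucose-6-phosphatase, takes that phosphate off again. Lactate dehydrogenase A (Ldha) and the monocarboxylate carrier Slc16a1 are known for being very low in β-cells, so that pyruvate is led to mitochondria.

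The kept cells numbered 1232 of 1240 deposited, and the deposited tables held 236645 to 1580152 unique molecular identifiers (UMIs, counts of single captured mRNA molecules) per sample. A cell was given the class of the hormone with the most UMIs when it had at least 2 times those of the next hormone. This gave 953 β-cells (Ins1 and Ins2), 114 α-cells (Gcg), 130 PP-cells (Ppy) and 13 δ-cells (Sst), while 22 mixed cells entered no class. Control and PPTx gave 375 and 578 β-cells, 95 and 19 α-cells, 32 and 98 PP-cells and 10 and 3 δ-cells. Levels pooled over samples therefore mix class with group. Within 2 to 4 times of the next hormone lay 8 β-, 6 α-, 7 PP- and 5 of the 13 δ-cells. Insulin chose the β-cells, so it is no check of them. Of the 8 β-cell markers that the rule did not use, Iapp stood at 48749 CPM in β-cells and 1057 in α-cells and Nkx6-1 at 129 and 10.3, while Mafa had only 2 UMIs in β-cells and 0 in α-cells. The median share of insulin UMIs was 59.4% in a β-cell, 0.76% in an α-cell and 0.88% in a PP-cell, and the source of insulin UMIs in the other classes was not tested. Doublets were not called, and 1 barcode was found in more than 1 sample. Levels are given as counts scaled to 1000000 UMIs of a class in a sample (CPM), on 3′ tags that need no correction for gene length.

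The last 30 coding bases of each enzyme are shown because the libraries read the 3′ end of a transcript, and because the members differ in how many other places in the genome carry the same letters there. The stop codon is in capitals, and the sequences were read 5′ to 3′ from reference transcripts of the mouse.
Gpi1: aagcaacagcgggacaccaaactagaaTAA
Pfkl: cgcaccttgagcatagacaagggtttcTGA
Aldoa: tctctcttcatctctaaccatgcctacTAA
Tpi1: tttgtggacatcatcaatgccaaacaaTGA
Gapdh: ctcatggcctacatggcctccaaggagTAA
Pgk1: cctggggtggatgctctcagcaatgttTAG
Pgam1: gtggctgctcagggcaaggtgaagaagTGA
Eno1: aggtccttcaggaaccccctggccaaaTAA
Pkm: aacaccatgcgtgtagtgcctgtacctTGA

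In the reference genome NCBIM37, the end of Gapdh was found at 83 places. Those of Aldoa, Pgk1, Pgam1, Eno1 and Pkm were found at 4 places each, that of Tpi1 at 2, and those of Gpi1 and Pfkl at 1. Such places are mostly known as processed pseudogenes of abundant mRNAs. A read that fits several places equally well cannot be assigned to 1 gene, and a count of 0 or near 0 at such a gene does not show that it is silent. To see this over the length that the reads cover, 75-base windows of the last 500 transcript bases were searched in the genome with at most 1 mismatch. Of 18 windows per gene, a copy elsewhere was found for 0% in Pfkl, 5.56% in Aldoa, 33.3% in Tpi1 and 33.3% in Pkm. The share was 72.2% in Gpi1, 83.3% in Pgk1 and in Eno1, 94.4% in Pgam1 and 100% in Gapdh, whose windows matched 122 other loci. At least 50% of windows were copied in 5 of the 9 enzymes, against 7.48% of 19194 genes. The counts of these 5 genes, Gpi1, Gapdh, Pgk1, Pgam1 and Eno1, are therefore uncertain as levels of their mRNA.

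**Figure D1:**
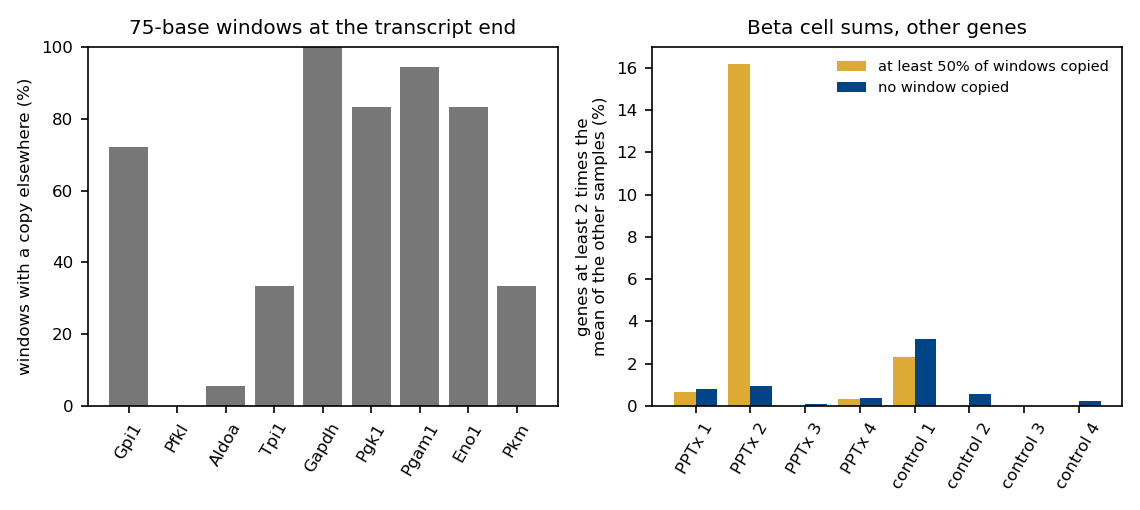
Left, bars give the percentage of 75-base windows near the 3′ end of each enzyme that match another place in the genome, from 0% in Pfkl to 100% in Gapdh. Right, bars give for each sample the percentage of genes whose β-cell CPM was at least 2 times the mean of the other samples. They are shown for genes with most windows copied and genes with none, and PPTx 2 reached 16.2% among copied genes.

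In β-cells, 2 enzymes, Aldoa and Pkm, carried most of the UMIs of the set. Aldoa, the aldolase that cleaves fructose bisphosphate, gave 1964 UMIs in the 953 cells, or 308 CPM. Pkm, the pyruvate kinase that makes pyruvate and ATP, gave 1817 UMIs, or 285 CPM. Tpi1, which interconverts the triose phosphates, followed with 332 UMIs (52.1 CPM), and Gpi1, which turns glucose 6-phosphate into fructose 6-phosphate, with 295 UMIs (46.3 CPM). Gapdh, which oxidizes glyceraldehyde 3-phosphate, had 210 UMIs (32.9 CPM), and Pfkl, the liver form of the committed phosphofructokinase step, had 93 (14.6 CPM). Pgk1, the kinase that makes the first ATP of the chain, had 53 UMIs (8.31 CPM) and Pgam1, the phosphoglycerate mutase, had 2 (0.31 CPM). Eno1, the enolase, was at 0 of 6377038 UMIs, which allows up to 0.47 CPM. In pooled level, Pfkl and the 5 genes with mostly copied windows stood below Aldoa, Pkm and Tpi1. Of these, Gpi1 overlapped with Tpi1 by sample. Eno1b, known as a processed-gene copy of Eno1 and listed as a gene of its own, held 109 UMIs in β-cells (17.1 CPM) while Eno1 held 0. That link is background. The window search found 2 annotated genes at other loci of Eno1, and 0 of these had a symbol of the count tables. The match was by name from an older annotation, so a gene listed under another name would be missed.

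By sample, Aldoa stood at 331, 263, 245 and 339.9 CPM in β-cells of control 1 to 4, and at 349, 384, 282 and 244 CPM in PPTx 1 to 4. Pkm stood at 372, 252, 220.3 and 285 CPM in control and at 298, 385, 249 and 246 CPM in PPTx. The ranges of these 2 enzymes overlapped within each sample set, and neither was above the other beyond the spread (304.9 ± 53.2 against 288 ± 60.6 CPM, SD, n = 8). Tpi1 and Gpi1 likewise overlapped, at 50.0 ± 13.8 and 47.8 ± 10.7 CPM. The gap of Aldoa and Pkm from Tpi1 exceeded the spread, since the lowest Pkm value, 220.3 CPM, lay above the highest Tpi1 value, 67.5 CPM.

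**Figure D2:**
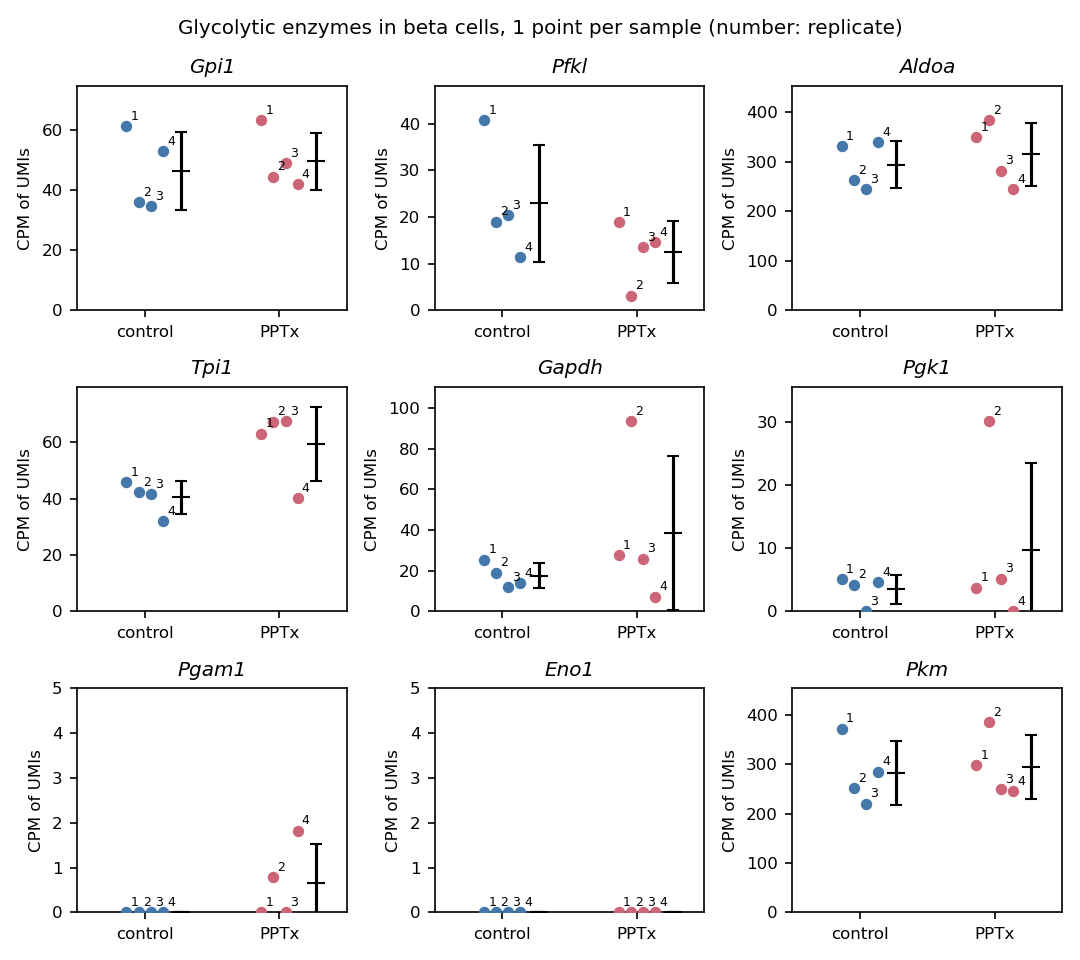
Each panel plots 1 enzyme, with CPM in β-cells on the vertical axis and the 4 control and 4 PPTx samples as points, with mean and SD as bars (lower ends stop at 0). Control and PPTx points overlap in every panel with counts, and PPTx 2 stands highest for Gapdh (93.5 CPM) and Pgk1 (30.1 CPM).

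The spread of the enzymes over single β-cells was described at 1 depth. After each of 869 β-cells was thinned to 2600 UMIs, Aldoa was seen in a median of 50.6% of cells over samples (45.1% to 63.1%) and Pkm in 50.5% (42.0% to 63.5%). At least 1 UMI of the 9 enzymes was present in 80.9% of cells (74.8% to 90.6%). The variance divided by the mean had a median over samples of 1.08 for Aldoa (0.87 to 1.52) and 1.01 for Pkm (0.86 to 1.26). For the 9 enzymes summed it was 1.27 (1.06 to 1.36), beside 0.99 (0.96 to 1.05) for all genes with a mean of at least 0.05 UMIs per cell. The sum and the single genes were not matched in mean, so no added spread of the set is read from this gap. The rank correlation of Aldoa and Pkm over cells of a sample ran from -0.06 to 0.30 with a median of 0.07. It is a description over sparse counts of cells that share a library.

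The first comparison set α-cells against β-cells, using sums of at least 5 cells per sample and edgeR's quasi-likelihood test with Benjamini-Hochberg adjustment over all genes tested. Aldoa and Pkm were both lower in α-cells. They were the only enzymes with enough UMIs to be tested, and 2 of 2 passed at an adjusted p below 0.05, where 23.5% of the 1398 genes tested were lower and 24.0% higher in α-cells. Their median log2 fold change was -0.64, beside 0.01 over all genes tested. Aldoa ran from 111 to 459.6 CPM in the 6 samples with α-cells, with a median of 267, and from 244 to 384 with a median of 307 in β-cells of 8 samples. Pkm ran from 111 to 328 CPM with a median of 223 in α-cells, and from 220.3 to 385 with a median of 268 in β-cells. Ranges overlapped for both enzymes, but Pkm was lower in α-cells in 6 of 6 samples and Aldoa in 3 of 6.

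Hormone genes took 63.9% of UMIs in β-cells and 48.1% in α-cells, so the share left for all other genes differs between classes. As CPM of UMIs without hormone genes, Aldoa stood at 518 ± 221 in α-cells and 844 ± 96.3 in β-cells of the same 6 samples, and was lower in 6 of 6. Pkm stood at 449 ± 149 and 804 ± 140 on that scale, again lower in 6 of 6. The fit, whose TMM scaling follows the bulk of genes, gave a log2 fold change of -0.59 for Aldoa (SE 0.18, edgeR adjusted p = 0.0039) and of -0.69 for Pkm (SE 0.19, edgeR adjusted p = 0.0013). The lower Aldoa level in α-cells thus holds relative to genes other than hormones, and on CPM of all UMIs the difference was within the spread. α-cells had a median of 3962.5 UMIs and β-cells 6061, and both calls were also made after thinning every cell to 2600 UMIs.

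The remaining enzymes were too low in α-cells for the test. Tpi1 had 34 UMIs in the 114 α-cells (69.9 CPM, 48.4 to 97.7 by an exact Poisson interval of 95%, which covers counting error only), and Gpi1 had 23 (47.3 CPM, 29.99 to 71.0). On CPM of all UMIs, these intervals include the pooled β-cell levels of Gpi1 and Tpi1, 46.3 and 52.1 CPM. By sample, Tpi1 averaged 42.0 ± 36.5 CPM in α-cells and 49.5 ± 14.6 in β-cells of the same 6 samples, lower in 4 of 6. Gpi1 averaged 37.5 ± 20.8 and 46.3 ± 10.2 CPM, also lower in 4 of 6. The pooled α-cell levels thus lie above the means by sample. Without a filter on low counts, the fit gave log2 fold changes of -0.67 (SE 0.38) for Gpi1 and -0.36 (SE 0.35) for Tpi1. Neither was called, and the median of all genes tested in that fit was also negative.

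In PP-cells, which make pancreatic polypeptide, Pkm was lower than in β-cells and Aldoa did not pass the test. Of the 2 enzymes tested 1 was called lower, where 23.0% of 1398 genes were lower and 25.0% higher in PP-cells. Pkm ran from 101 to 284 CPM with a median of 157 in 7 samples, below the same sample's β-cells in 7 of 7. Its log2 fold change was -0.82 (SE 0.17, edgeR adjusted p = 1.7e-05). Aldoa ran from 170.3 to 409.9 CPM with a median of 267, below β-cells in 4 of 7 samples, with a log2 fold change of -0.18 (SE 0.15, edgeR adjusted p = 0.32). The median over the 2 enzymes was -0.50, beside 0.02 over all genes tested. Hormone share was 62.6% in PP-cells and close to that of β-cells, and Pkm stayed lower in 7 of 7 samples without hormone genes (461 ± 172 against 762 ± 88.4).

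**Figure D3:**
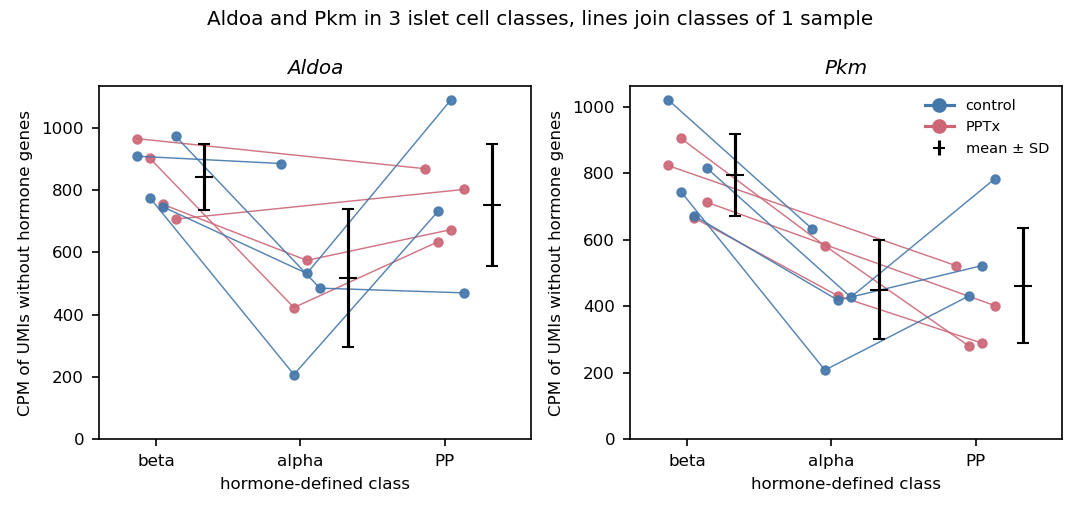
Aldoa and Pkm are plotted as CPM of UMIs without hormone genes for each sample's β-, α- and PP-cells, with mean and SD. α-cells lie below β-cells of the same sample in 6 of 6 samples for both enzymes, and PP-cells lie below in 7 of 7 for Pkm and 5 of 7 for Aldoa.

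The 13 δ-cells, which secrete somatostatin, came at most 3 to a sample. No sample reached the minimum of cells set here for a class sum, so δ-cells were not compared with β-cells by a test. Pooled, they gave 19 UMIs of Aldoa and 19 of Pkm in 41257, or 460.5 CPM each, with an exact Poisson interval of 277 to 719 for counting error only. Gpi1 had 1 UMI and Tpi1 2, and the other enzymes were at 0, which allows up to 72.7 CPM.

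The genes around the chain were taken from 6 lists of 91 genes (isoenzymes of the same steps, regulators and branch points, glucose entry and pyruvate fate, pentose phosphate, citrate cycle, hypoxia). Between α- and β-cells 24 of them were tested, 2 were higher and 6 lower in α-cells, where 24.0% of all genes tested were higher and 23.5% lower. Slc2a2 was lower, with 14.4 CPM in pooled α-cells against 218 in β-cells (log2 fold change -4.52, SE 0.39, edgeR adjusted p = 1.9e-20). G6pc2 was also lower (log2 fold change -4.69, SE 0.32, edgeR adjusted p = 1.7e-09), at 96.7 against 1994 CPM. Both were lower in PP-cells too, Slc2a2 by a log2 fold change of -4.92 (SE 0.38) and G6pc2 by -4.79 (SE 0.29). Both genes were among the markers used to check β-cells, so their direction is no separate finding. Pdk4, a kinase that switches off pyruvate dehydrogenase, was higher in α-cells: 74 UMIs in α-cells gave 152 CPM (119.5 to 191), 15 in PP-cells gave 20.3 CPM (11.4 to 33.6), and 3 in all β-cells gave 0.47 CPM (0.10 to 1.37, exact Poisson intervals). It was called higher in both classes. With 3 UMIs in all β-cells, Pdk4 entered the test through the classes where it is high, so the calls add nothing to these counts.

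Hk1, a hexokinase with high affinity for glucose, had 4 UMIs in all β-cells (0.63 CPM, 0.17 to 1.61) and 12 in α-cells (24.7 CPM, 12.8 to 43.1). Ldha had 16 UMIs in β-cells (2.51 CPM, 1.43 to 4.07) and 0 in α- and PP-cells, which allows 6.17 and 4.07 CPM, so no difference between classes was detectable at this depth.

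Of the citrate cycle, 3 of 11 genes tested were lower in α-cells, a share near that over all genes, among them Fh1 (log2 fold change -1.17) and Ogdh (-0.92), and none was higher. In PP-cells 3 of 11 were lower, among them Fh1 (-0.77) and Sdhc (-0.69). Mdh1, the cytosolic malate dehydrogenase of the NADH shuttle, was lower in α-cells (-1.34) and PP-cells (-1.08), and Gpd2, the mitochondrial arm of the glycerol phosphate shuttle, was lower in PP-cells (-1.50). Of 5 hypoxia genes tested, 1 was higher in α-cells, Hif1a (1.01), and 3 were higher in PP-cells, Ddit4 (1.29), Hif1a (1.09) and Ndrg1 (0.96). In PP-cells Mpc2, a subunit of the mitochondrial pyruvate carrier, was higher (0.50), and over all lists 5 of 24 genes were higher and 7 lower, where 25.0% of all genes tested were higher and 23.0% lower. No isoenzyme was tested between classes, and of 2 pentose phosphate genes none was called. The calls of Hif1a in either class and of Mpc2 were lost under some settings, and that of Ndrg1 without a filter on low counts. Hif1a and Ddit4 had enough counts in only 5 of the 8 runs that left out 1 sample. Whether they entered the test through the classes where they are higher was not tested.

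The second question was whether β-cells that carry mRNA of the cell cycle differ in these enzymes. Top2a, a topoisomerase, and Cdk1, the kinase that drives mitosis, mark S, G2 and M phase. β-cells with a UMI of either numbered 48, of which 46 lay in 6 samples with at least 3 such cells (7, 17, 9 and 5 in PPTx 1 to 4, 4 and 4 in control 3 and 4). Of the 48 cells, 25 had exactly 1 UMI of the 2 genes together. A UMI of either was also found in 2 of 114 α-cells and 1 of 130 PP-cells, at a median depth of 3962.5 and 5206 UMIs a cell, against 6061 in β-cells. Each sample's sum of the β-cells with such a UMI was set against its other β-cells. Aldoa was lower in the cells with Top2a or Cdk1 and no other enzyme passed the test: 1 of 4 tested enzymes was lower and 0 higher, where 1.97% of 2645 genes tested were lower and 3.78% higher. The median of the 4 enzymes was -0.04, beside -0.09 over all genes tested.

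Aldoa stood at 73.9, 222, 201 and 163 CPM in such cells of PPTx 1 to 4 and at 43.6 and 159 CPM in those of control 3 and 4. The other β-cells of the same samples stood at 375, 397, 291, 247, 252 and 345 CPM. All 6 values with Top2a or Cdk1 lay below all 6 without, and the 2 ranges did not overlap. The values with it rest on 54 UMIs in all, against 1721 without. The log2 fold change was -1.28, or 0.411-fold (SE 0.23, edgeR adjusted p = 1.7e-06), with means of 144 ± 70.5 and 318 ± 63.9 CPM (SD, n = 6).

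Pkm, next to Aldoa in level, showed no such shift. It stood at 310.5, 348, 222, 109, 349 and 317 CPM in the cells with Top2a or Cdk1 and at 297, 388, 252, 251, 216 and 284 CPM in the others, lower in 3 of 6 samples. Its log2 fold change was -0.15 (SE 0.20, edgeR adjusted p = 0.80). Tpi1 was at 88.7, 84.4, 148, 54.3, 131 and 39.7 CPM against 60.7, 65.9, 58.7, 39.6, 38.4 and 31.9 CPM. These values lay higher with Top2a or Cdk1 in 6 of 6 samples, but the log2 fold change of 0.79 (SE 0.32) did not pass (edgeR adjusted p = 0.14). Gpi1 gave 0.07 (SE 0.39), with 19 UMIs in the cells with Top2a or Cdk1.

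**Figure D4:**
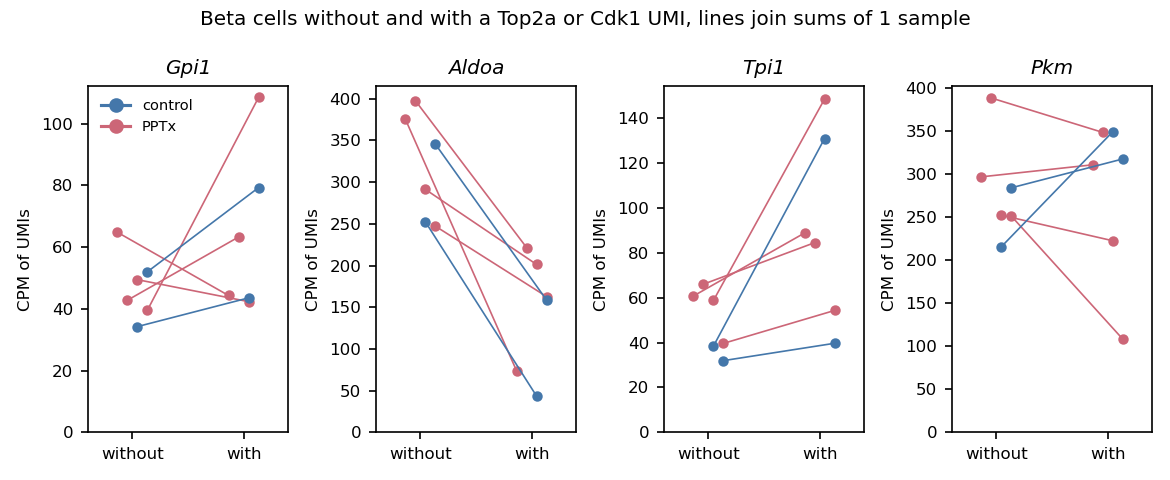
Lines join the 2 sums of each of 6 samples, β-cells without and with a Top2a or Cdk1 UMI, with CPM on the vertical axis, for Gpi1, Aldoa, Tpi1 and Pkm. Aldoa falls in 6 of 6 samples, Tpi1 lies higher in 6 of 6 without passing the test, and Pkm goes each way in 3.

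Of the 34 list genes tested in the same fit, 1 was lower and 0 were higher. It was G6pc2, at 1334 ± 518 CPM in cells with Top2a or Cdk1 and 1957 ± 490 in the others, lower in 6 of 6 samples (log2 fold change -0.83, SE 0.18, edgeR adjusted p = 0.00012). Slc2a2 (-0.19, SE 0.22) was not called. None of 15 citrate cycle genes tested was called, with a median of 0.06. These sums rest on 4 to 17 cells each, and a cell read more deeply is more likely to show a UMI of Top2a or Cdk1. Against only the deeper of the other cells, Aldoa kept a call at -1.20, and it was also called in each run that left out 1 sample (-1.58 to -1.08).

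The third comparison was that of the study's groups, PPTx against control, in β-cells. None of the enzymes passed the test. Of the 9, 6 had enough UMIs, and 0 were called by edgeR and by DESeq2, where edgeR called 20 of 5911 genes (0.338%). At an unadjusted p below 0.05 there was 1 enzyme, Tpi1, where 9.54% of all genes were so. The median log2 fold change of the 6 was 0.03, beside -0.01 over all genes tested. Aldoa differed by 0.00 (SE 0.16) and Pkm by -0.01 (SE 0.16), so both lay close to equal, within the values by sample given earlier. Gpi1 stood at 61.2, 36.0, 34.6 and 52.8 CPM in control and at 63.1, 44.4, 48.8 and 41.9 CPM in PPTx, a log2 fold change of 0.06 (SE 0.23).

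Tpi1 stood at 45.9, 42.4, 41.7 and 32.2 CPM in control and at 63.1, 67.3, 67.5 and 40.1 CPM in PPTx. PPTx 1 to 3 were above every control sample and PPTx 4 was below 3 of them. The log2 fold change was 0.49 (SE 0.22, edgeR adjusted p = 0.47). Pfkl stood at 40.8, 19.1, 20.5 and 11.5 CPM in control and at 18.9, 3.17, 13.5 and 14.6 CPM in PPTx, with overlapping ranges and a log2 fold change of -0.86 (SE 0.44, edgeR adjusted p = 0.57). This value ran from -1.19 to -0.36 when 1 sample was left out.

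Gapdh stood at 25.5, 19.1, 11.8 and 13.8 CPM in control and at 27.8, 93.5, 26.0 and 7.29 CPM in PPTx. PPTx 2 stood far above the other 7 samples, and the log2 fold change of 1.32 (SE 0.67, edgeR adjusted p = 0.61) became 0.46 without it. Pgk1, which was too low for the main test, showed the same library on top, with 30.1 CPM in PPTx 2 and 0 to 5.19 CPM in the other 7 samples. The other enzymes with mostly copied windows did not stand out there. Gpi1 was at 44.4 CPM in PPTx 2, within the 34.6 to 63.1 CPM of the other samples, Pgam1 had 1 UMI and Eno1 0. In PP-cells of PPTx 2 Gapdh stood at 81.3 CPM (18 UMIs), beside 71.3 CPM (4 UMIs) in control 3, and in its α-cells only 2 UMIs were counted. In that library, 49 of 303 genes with mostly copied windows (16.2%) were at least 2 times the mean of the other samples, against 51 of 5331 genes with no copied window (0.957%). In the other 7 libraries the share among copied genes was at most 2.31%. Whether this set the values of Gapdh and Pgk1 was not tested.

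**Figure D5:**
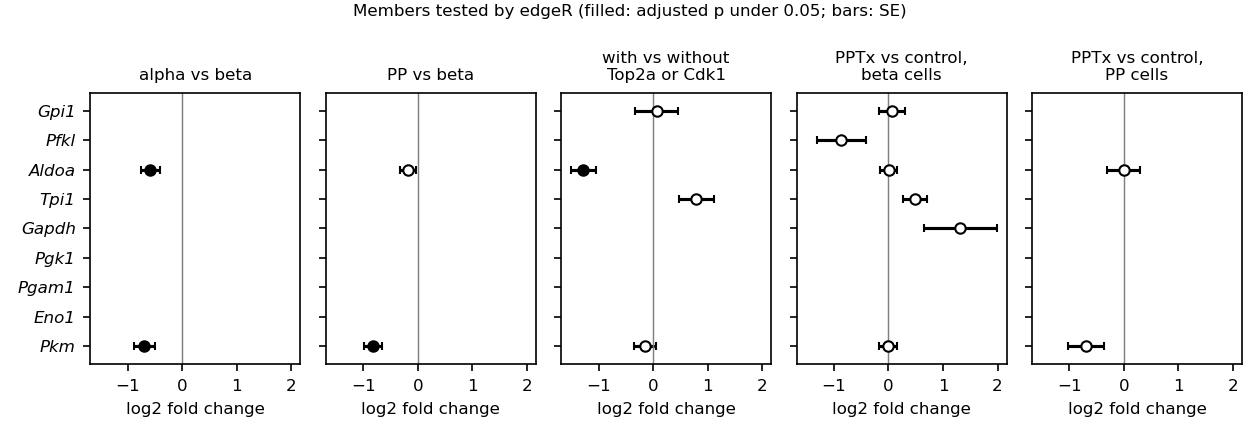
Points give log2 fold changes and bars their SE for the enzymes tested in each comparison, and filled points have an edgeR adjusted p below 0.05. The filled points are Aldoa and Pkm in α-cells, Pkm in PP-cells and Aldoa in β-cells with Top2a or Cdk1, and all lie below 0.

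Of the 53 list genes tested between PPTx and control β-cells, 0 were called, with 0 of 5 isoenzymes, 6 regulators, 10 genes of glucose entry and pyruvate fate, 8 of pentose phosphate, 15 of the citrate cycle and 9 of hypoxia. The list medians ran from -0.26 for hypoxia to 0.22 for pentose phosphate. The glucose carrier Slc2a2 came nearest. As CPM of UMIs without hormone genes it stood at 671, 813, 711 and 785 in control and at 529.9, 462, 533 and 464 in PPTx, so that all PPTx samples lay below all control samples. Its log2 fold change was -0.56 (SE 0.15, edgeR adjusted p = 0.11), and it was called by DESeq2 (adjusted p = 0.048) and with the replicate block (adjusted p = 0.044). G6pc2 (-0.06, SE 0.17) was not called. PP-cell markers summed to 270.1 to 1677 CPM in control β-cell sums and 2073 to 5323 CPM in PPTx, and these ranges did not overlap. Stellate-cell markers summed to 0 to 40.2 CPM in control and 1.04 to 272 CPM in PPTx, immune markers to 15.3 to 66.1 and 17.6 to 154 CPM, and acinar markers to 5.74 to 45.9 and 6.23 to 135 CPM. The part of other cells' RNA in these values was not tested.

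In PP-cells, the same comparison used control 2 to 4 and all PPTx samples, and called 0 of 638 genes (0.0%) by edgeR and 0 by DESeq2, with 6.27% at an unadjusted p below 0.05. Pkm stood at 157, 196 and 284 CPM in control and at 201, 117, 101 and 144 CPM in PPTx, overlapping, with a log2 fold change of -0.69 (SE 0.33, edgeR adjusted p = 0.73). Leaving out 1 sample at a time gave -0.93 to -0.38 for Pkm. Aldoa differed by 0.00 (SE 0.30). The median of the 2 was -0.35, beside 0.02 over all genes tested. Whether the operation acted otherwise on PP-cells than on β-cells was tested as an interaction in the 7 samples with both. Of the 5 enzymes tested 0 were called, where 1 of 4402 genes was (0.0227%, and 5.79% at an unadjusted p below 0.05). Pkm gave -0.76 (SE 0.33, edgeR adjusted p = 0.82), Gapdh -1.37 (SE 0.80), Tpi1 -0.66 (SE 0.66), Gpi1 -0.03 (SE 0.62) and Aldoa 0.02 (SE 0.28). G6pc2 gave 1.13 (SE 0.46, edgeR adjusted p = 0.82) and Slc2a2 -0.11 (SE 1.08), and leaving out 1 sample at a time gave 0.58 to 2.46 and -4.46 to 0.47. The value of Gapdh became -0.63 without control 3 and -1.85 without control 4, that of Tpi1 -0.17 without control 3, and that of Pkm changed sign to 0.24 in thinned cells.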

How the data were processed

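Single islet cells of 4 control and 4 PPTx mouse samples were sequenced with 3′ libraries. The deposited values are the authors' counts of UMIs per gene and cell, without normalization, from reads placed on mm10. Cell Ranger 2.1.0 is named in the submitters' processing notes. The labels name a Chromium kit and the study's methods a kit for the ddSEQ instrument, and which was used was not settled here. The tables hold 0 mitochondrial genes and 0 columns without a sample.

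The study's limits on cells, 100 to 3000 genes and 100 to 20000 UMIs, were applied. Counts were summed per sample and hormone class (at least 5 cells; 3 for cells with a Top2a or Cdk1 UMI) and tested in R 4.3.3 with edgeR 4.0.16 (filterByExpr, TMM, robust quasi-likelihood test, two-sided, Benjamini-Hochberg over all genes tested, threshold 0.05). Fits of class, of Top2a or Cdk1 and of the interaction held sample as a block, and those of PPTx against control held no block. The fits were tested on simulated data. DESeq2 1.42.0, other totals, filters, class rules, thinning to 2600 UMIs, leaving out each sample and a replicate block were alternatives. Thinning removed 123 cells. Tables were read with Python 3.11.15. The windows were mapped with minimap2 2.31-r1302 to NCBIM37, the genome at hand, which is not the build of the tables. In GRCm38.p6, by RefSeq, the genes lie at chr7:34201327-34230336 (Gpi1), chr10:77986947-78009807 (Pfkl), chr7:126795234-126800994 (Aldoa), chr6:124810586-124814158 (Tpi1), chr6:125161852-125166467 (Gapdh), chrX:106187100-106203699 (Pgk1), chr19:41911871-41918665 (Pgam1), chr4:150236708-150248879 (Eno1) and chr9:59656576-59679372 (Pkm).

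All 9 enzymes are named in each comparison with enough counts. Of the listed genes, those called are named, with Slc2a2 and G6pc2 in each comparison that tested them and Ldha, Hk1 and Eno1b as levels. Single results of 2 listed genes are not reported here. The enzymes and lists were chosen with earlier results of these data known. δ-cells against β-cells (no sample with 5 δ-cells) and PPTx against control in α-cells (2 PPTx samples with 5 α-cells) were not tested.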

Additional observations from a re-analysis of the deposited data

Results flagged for a closer look

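Tpi1 in β-cells of PPTx 4 stood apart from the other PPTx samples, at 40.1 CPM against 63.1 CPM for the next lowest of the 4. The gap took up 0.84 of the range of the group by Dixon's criterion. Of 28 groups examined in this way 1 was marked, and chance marks about 5% of groups.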

How the results depend on the processing

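The calls of Aldoa and Pkm in α-cells, of Pkm in PP-cells and of Aldoa with Top2a or Cdk1 were made under every alternative run. Their log2 fold changes ran from -1.04 to -0.55, -1.15 to -0.67, -1.20 to -0.58 and -2.33 to -1.08. Without a filter on low counts 2 enzymes were called in PP-cells, since Aldoa (-0.57, edgeR adjusted p = 0.025) joined Pkm. No enzyme was called between PPTx and control under any alternative run.

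Samples with the same replicate number had low correlations (0.03 to 0.14), and 3 of 4 control samples were best with their own number. Whether the numbers pair the samples was not settled. With the replicate block 0 enzymes were called, and genes called went from 20 to 50 in β-cells and from 0 to 3 in PP-cells.

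Some uncalled differences changed sign, and the cause was not tested. With Top2a or Cdk1 these were Gpi1 (-0.40 without a filter; -0.065 to 0.25 leaving out samples) and Pkm (0.044 with 10 markers). For PPTx in β-cells they were Gpi1 (-0.096 with all deposited cells; -0.085 to 0.21), Aldoa (-0.084 with all deposited cells, -0.011 with the block, -0.021 on totals without hormones, -0.10 thinned; -0.065 to 0.099), Pkm (0.025 without a filter, 0.014 without Top2a or Cdk1 cells; -0.092 to 0.095) and G6pc2 (0.011 with all deposited cells; -0.17 to 0.17). In PP-cells it was Aldoa (0.14 without a filter, 0.19 with a hormone ratio of 4; -0.30 to 0.30). In the interaction they were Gpi1 (0.073 without a filter, 0.11 with a ratio of 4, 1.90 thinned; -0.36 to 0.28), Aldoa (-0.023 with DESeq2, -0.046 on totals without hormones, -0.040 with median-of-ratios factors; -0.41 to 0.44), Pkm (0.24 thinned) and Slc2a2 (-4.46 to 0.47).

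Genes called in α-cells went from 665 to 1348 without a filter and 353 thinned, in PP-cells from 670 to 1514 and 311, with Top2a or Cdk1 from 152 to 549, 23 and, in all samples with such a cell, 75. For PPTx in β-cells they went from 20 to 64, 12 and, without Top2a or Cdk1 cells, 13, and to 6 without PPTx 1, 7 without control 2, 12 without control 4 and 13 without control 1. In the interaction they went from 1 to 0 with DESeq2, to 0 without PPTx 2, PPTx 3 or control 2, and to 4 on totals without hormones. The median of all genes tested in α-cells moved to -0.13 with DESeq2, -0.19 on totals without hormones and -0.42 without a filter. Without a filter it moved to -0.43 in PP-cells, to -0.63 with Top2a or Cdk1 (-0.32 thinned), to 0.28 for PPTx in PP-cells and to 0.22 in the interaction. Depth limits every enzyme in δ-cells. Pgk1, Pgam1 and Eno1 were too low for the main test in each comparison, and the part of copied windows in this was not tested.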

Other observations

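Over the 21 sums of β-, α- and PP-cells, the genes whose level followed the summed enzymes most closely, of 1365 ranked, were Spcs1 (Pearson r = 0.75), Ndufb7 (0.74), Ninj1 (0.73), Atp5g1 (0.73) and Derl1 (0.72), where the median over genes was -0.03 and the 95th percentile 0.52. Spcs1 and Derl1 encode parts of the endoplasmic reticulum's signal peptidase and of its disposal of misfolded proteins, and Ndufb7 and Atp5g1 subunits of respiratory complex I and of ATP synthase. These are descriptions: sums of a sample share a library, and classes differ in hormone share. Within the 8 β-cell sums alone the values were 0.72, 0.55, 0.55, 0.56 and 0.95.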
